A study of Mus musculus with 6 samples.

Results

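The genes described here encode the proteins of the mitochondrial ribosome and were taken as every gene symbol that starts with Mrps or Mrpl and a digit, without pseudogenes. They number 77 of the 30236 genes in the liver tumor expression table. By symbol 29 belong to the small subunit (Mrps) and 48 to the large subunit (Mrpl), and 4 pseudogene rows were left out. In tumors of Top1mt-KO mice against WT mice, 0 of these genes passed an adjusted p under 0.05 by limma, and the median log2 difference was 0.103 for Mrps and 0.058 for Mrpl genes. Both subunits had their highest mean level in the same single KO library.

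Mitochondrial ribosomes translate the few messenger RNAs made from mitochondrial DNA, all of which encode subunits of the respiratory chain and the ATP synthase. The small subunit binds the messenger RNA and reads its codons, and the large subunit joins the amino acids and releases the chain at the inner membrane. Their RNA is made from mitochondrial DNA, whereas all of their proteins are encoded in the nucleus, made in the cytosol and imported. Some of the proteins have a counterpart in bacterial ribosomes, and others are found in mitochondria only. TOP1MT is a topoisomerase that relaxes mitochondrial DNA. The study asked how it affects the growth of tumors, and it reported that loss of TOP1MT impairs mitochondrial translation.

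RNA was sequenced from 3 WT and 3 Top1mt -/- liver tumors, the latter called Top1mt-KO or KO below. The animals were all males on the C57BL/6 background, and the study describes the genotypes as littermates from heterozygous breeding. Tumors were induced in several litters over time, and the litter of each animal is not given. The tumors sequenced were of the same size. Both genotypes received diethylnitrosamine, a liver carcinogen, on day 14 after birth, and then carbon tetrachloride, which injures the liver, for 14 weeks from week 8. Tumors were taken at an age of 22 weeks. The knockout was germline, so every cell of a KO tumor carried it, host cells included. The libraries are named WT1 to WT3 and KO1 to KO3 as in the labels. The sources do not say whether any of the tumors came from the same mouse, so p-values measure the spread between these 6 samples. The values are the authors' log2 expression values, normalised between libraries, and the depth of each library is unknown. In whole tumors, fewer cells of a type and less RNA per cell cannot be told apart.

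WT2 and KO1 stood apart from the other libraries, which bears on every comparison below. The targeted gene Top1mt had log2 values of 7.71, 5.99 and 8.01 in WT1, WT2 and WT3 and of 5.58, 6.41 and 6.32 in KO1, KO2 and KO3. In the library labelled WT2 the gene was therefore lower than in KO2 and KO3, which goes against that label. The log2 difference was -1.13 with a standard error of 0.52 (adjusted p = 0.999, limma), and it was -1.76 without WT2. In KO1 the RNA gene Gm42418 took 17.7% of the summed linear values and at most 0.387% in any other library. Marker lists of 7 cell types, among them hepatocytes, macrophages and endothelium, had no marker near the bottom of the table, and the summed level of each list overlapped between the genotypes. The hepatocyte list summed to log2 values of 20.62 to 21.33 in WT and 20.88 to 21.45 in KO. The mean centred level, which weights markers equally, did not overlap for the bile duct list of 6 genes, with 0.49, 0.06 and 1.09 in WT and -0.97, -0.07 and -0.61 in KO. Of its genes Krt19 (log2 difference -2.68, unadjusted p = 0.00491, adjusted p = 0.987, limma) and Epcam (-1.19) were lower in every KO library. Krt7 (-2.2) and Cftr (-0.7) had a lower mean in KO with overlap, and Sox9 (0.15) and Spp1 (0.05) had a higher one. The part of WT2, KO1 and cell composition in the differences was not tested.

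Nearly all of the genes were expressed. All 77 matched the mouse gene annotation (GENCODE M21, build GRCm38), where they lie on 17 chromosomes, and 76 passed the filter on low values. The exception was Mrpl53, a large subunit gene, with log2 values of -1.70 to -1.62 in the 6 libraries. In that annotation 88.0% of its exon bases are shared with Ccdc142os and Gm42688 on the same strand, so reads of these genes cannot be told apart there. To compare genes, the mean log2 value was corrected for the total exon length, giving a log2 level per kb. On this scale the 76 genes ran from 4.15 to 8.90 with a median of 7.01, against a median of 5.32 for the protein-coding genes tested and of 10.37 for the proteins of the cytosolic ribosome. Large subunit genes had the higher median level per kb, 7.37 (quartiles 6.56 and 8.09) against 6.45 (quartiles 5.68 and 7.62) for small subunit genes. The quartile ranges overlapped. With the longest transcript as the length the medians were 7.69 and 6.87, and without any length correction 8.51 and 8.23. Among bacterial counterparts the median level per kb was 7.11 (45 genes), and among mitochondria-specific proteins it was 6.92 (30 genes).

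The ends of this order held genes of both subunits. The highest levels per kb were those of Mrpl54 (8.90), Mrpl52 (8.89), Mrps21 (8.69) and Mrpl2 (8.63). Mrps21 is the counterpart of a small bacterial protein, and Mrpl2 lies near the site where peptide bonds are formed. At the low end stood Mrpl23 (4.15), Mrps25 (4.65), Mrps30 (5.02) and Mrps35 (5.04). Mrpl23 is a protein at the rim of the tunnel through which the new chain leaves. The level per kb of Mrps34 (5.26) is uncertain, since 36.0% of its 100-base windows also occur in Nme3.

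**Figure D1:**
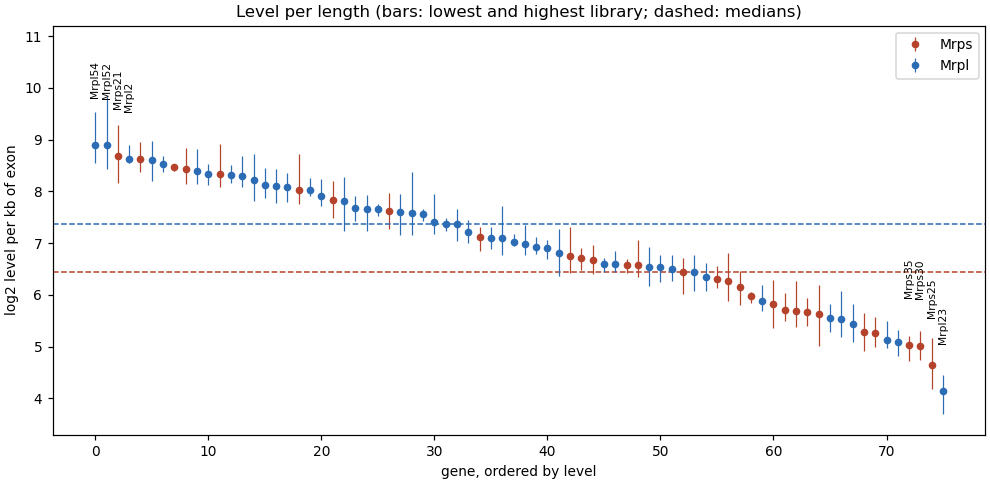
The plot shows the log2 level per kb of exon (vertical axis) of the 76 genes in order of level (horizontal axis), with Mrps genes in red and Mrpl genes in blue; bars run from the lowest to the highest library and dashed lines mark the medians of 6.45 and 7.37. Genes of both subunits occur at the top and at the bottom, between 8.90 and 4.15.

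Promoters were examined because genes of one particle are often driven by the same factors. A promoter sequence from 250 bases before to 50 bases after the transcript start was found in RefSeq (build GRCm38.p6) for 68 of the 77 genes, 26 Mrps and 42 Mrpl. Not matched were Mrpl4, Mrpl13, Mrpl15, Mrpl19, Mrpl38, Mrpl54, Mrps28, Mrps34 and Mrps35. Short motifs were searched on both strands. Some genes have several listed starts, and such a gene was counted once, with a motif in any of them. Counts of promoters below are thus counts of genes. The core bound by ETS factors such as GABP, a known regulator of nuclear genes for mitochondrial proteins, was searched as CCGGAAG. It occurred in 25 of the 68 promoters (36.8%), in 42.3% of Mrps and 33.3% of Mrpl promoters, against 12.9% of 17491 protein-coding genes. In 20 of these 25 promoters (80.0%) a copy was centred within 50 bases of the start, against 63.4% of all protein-coding promoters with the core. The YY1 core, AAGATGG, occurred in 19.1% of the members' promoters against 7.18%, and the NRF1 core, GCGCATG, in 10.3% against 5.39%. The NRF1 core was found in 6 of 42 Mrpl promoters (14.3%) but in only 1 of 26 Mrps promoters (3.85%). At least 1 of these 3 motifs was present in 37 of the 68 promoters (54.4%). The Sp1 box GGGCGG (34 of 68 promoters, against 49.2%), the CCAAT box (38.2% against 42.3%) and the E-box CACGTG (7.35% against 8.91%) occurred about as often as elsewhere, and the TATA box TATAAA in 7.35% against 14.8%. No motif searched contains another. The share with an Sp1 box was 65.4% in Mrps and 40.5% in Mrpl promoters. A match is a run of letters and not a bound site.

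Promoters of 4 genes whose KO and WT values did not overlap are shown, with Mrpl52, the gene that varied most between libraries. Each is printed from 5′ to 3′ on the strand of the gene, with ETS and YY1 cores of either orientation in capitals. The Mrps27 promoter is chr13:99344536-99344835 on the plus strand, that of Mrps26 is chr2:130563507-130563806 on the plus strand, that of Mrpl18 is chr17:12916042-12916341 on the minus strand, that of Mrpl52 is chr14:54426659-54426958 on the plus strand and that of Mrps25 is chr6:92183974-92184273 on the minus strand. In the Mrps25 promoter neither these cores nor the NRF1 core was found.
Mrps27: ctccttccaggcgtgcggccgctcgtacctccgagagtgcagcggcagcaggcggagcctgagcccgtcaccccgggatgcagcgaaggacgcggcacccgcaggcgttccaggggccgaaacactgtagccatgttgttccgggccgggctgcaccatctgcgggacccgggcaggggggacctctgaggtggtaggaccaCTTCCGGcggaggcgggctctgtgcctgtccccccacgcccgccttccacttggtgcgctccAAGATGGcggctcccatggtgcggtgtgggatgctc
Mrps26: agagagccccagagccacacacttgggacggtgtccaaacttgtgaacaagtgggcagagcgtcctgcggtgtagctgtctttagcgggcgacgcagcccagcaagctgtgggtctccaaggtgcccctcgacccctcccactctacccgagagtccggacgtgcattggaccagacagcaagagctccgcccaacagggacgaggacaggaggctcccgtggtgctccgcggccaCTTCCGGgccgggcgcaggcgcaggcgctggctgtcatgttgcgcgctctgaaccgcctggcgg
Mrpl18: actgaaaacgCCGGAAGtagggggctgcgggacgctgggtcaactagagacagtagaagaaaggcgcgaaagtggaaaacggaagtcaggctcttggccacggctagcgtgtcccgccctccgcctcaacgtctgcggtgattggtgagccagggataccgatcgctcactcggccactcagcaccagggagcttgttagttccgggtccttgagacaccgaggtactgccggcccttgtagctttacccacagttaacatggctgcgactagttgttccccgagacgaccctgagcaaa
Mrpl52: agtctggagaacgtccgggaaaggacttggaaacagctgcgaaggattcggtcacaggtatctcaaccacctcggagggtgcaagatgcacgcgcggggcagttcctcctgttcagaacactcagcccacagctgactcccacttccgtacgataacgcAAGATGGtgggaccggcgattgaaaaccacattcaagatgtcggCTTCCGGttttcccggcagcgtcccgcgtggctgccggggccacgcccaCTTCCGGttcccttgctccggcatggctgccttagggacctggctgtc
Mrps25: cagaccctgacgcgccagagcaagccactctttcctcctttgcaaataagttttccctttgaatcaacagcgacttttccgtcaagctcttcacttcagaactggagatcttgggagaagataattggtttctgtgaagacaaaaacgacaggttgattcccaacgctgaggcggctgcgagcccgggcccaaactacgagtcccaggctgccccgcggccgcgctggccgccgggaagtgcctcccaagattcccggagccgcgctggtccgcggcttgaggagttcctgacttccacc

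The comparison of KO with WT tumors asked whether the loss of TOP1MT goes with another level of these messenger RNAs. Of the 76 genes tested, 53 (69.7%) had a log2 difference above 0, against 47.7% of all 22677 genes tested. With each library centred on its median these were 62 of the 76 and 56.8% of all genes. The difference was above 0 for 22 of 29 Mrps genes and for 31 of 47 Mrpl genes. The median difference over all members was 0.075, and that over all genes was -0.015. By limma with Benjamini-Hochberg adjustment 0 members passed, as did 0% of all genes, and the smallest adjusted p of a member was 0.999. Unadjusted, the p of 3 members lay under 0.05, that of Mrps27 and Mrpl18 (higher in KO) and of Mrps25 (lower in KO), against 4.34% of all genes (1.79% higher and 2.56% lower). The 3 WT and 3 KO values did not overlap in 8 members (10.5%), against 8.28% of all genes, so this share was near the background. Of these, 5 were higher and 3 lower in KO, against 3.95% and 4.33% of all genes. For a single gene an exact permutation test of 3 against 3 allows no p below 0.1, which each of these 8 genes had (two-sided). The 3 members under an unadjusted p of 0.05 became 0 without KO2 and 1 without WT2, WT3 or KO3. The 8 became 14 without WT2 or KO3 (18.3% and 15.9% of all genes) and 19 without KO1 (21.5%), since fewer libraries overlap less often, and 3 with each library centred on its median (8.70%).

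**Figure D2:**
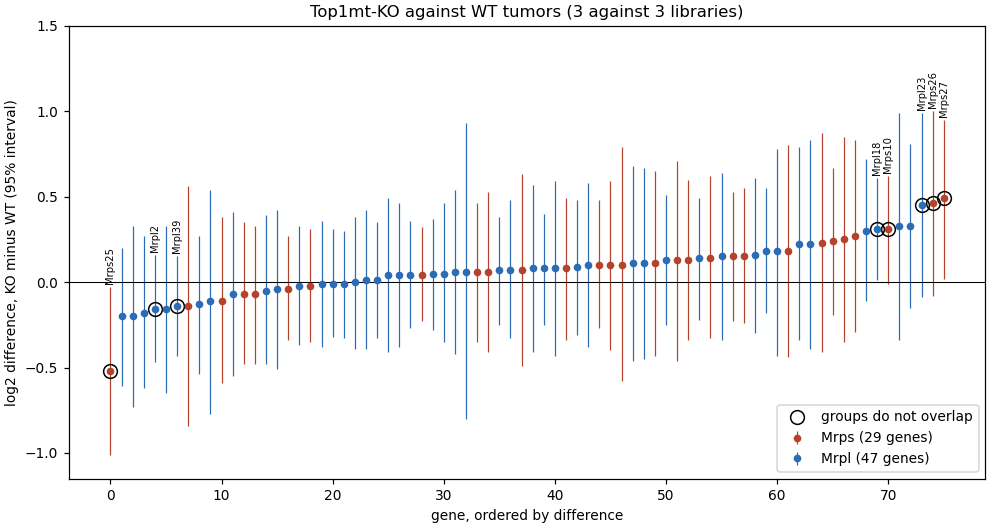
The plot shows the log2 difference, KO minus WT, with its 95% interval from limma (vertical axis) for the 76 genes in order of the difference (horizontal axis), Mrps in red and Mrpl in blue. Open circles mark the 8 genes whose 3 WT and 3 KO values do not overlap, among them Mrps25 at -0.52 and Mrps27 at 0.49 and the intervals of all but Mrps25, Mrps27 and Mrpl18 span 0.

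Among small subunit genes, Mrps27, Mrps26 and Mrps10 had higher values in every KO library than in any WT library, and Mrps25 had lower ones. Mrps27 encodes an RNA-binding protein of the pentatricopeptide family. Its log2 values were 7.09, 7.09 and 7.64 in WT1, WT2 and WT3 and 7.77, 7.78 and 7.73 in KO1, KO2 and KO3, so that WT3 lay close to the KO libraries and the gap was made by WT1 and WT2. The log2 difference was 0.49 with a standard error of 0.20 (95% interval 0.02 to 0.95, unadjusted p = 0.0418, adjusted p = 0.999, limma). Part of this gene (24.2% of its exon bases) overlaps 6430562O15Rik on the opposite strand. Mrps26, a mitochondria-specific protein, had 7.14, 7.76 and 7.72 in WT and 8.33, 7.84 and 7.82 in KO. Here WT1 was low and KO1 high, and the other 4 libraries spanned 7.72 to 7.84. Its log2 difference was 0.46 with a standard error of 0.23, and it was 0.26 without WT1 and 0.29 without KO1. Mrps10, the counterpart of a bacterial protein in the head of the subunit, had 8.59, 8.41 and 8.55 in WT and 8.78, 8.95 and 8.74 in KO, a log2 difference of 0.31 with a standard error of 0.14.

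Mrps25 was the small subunit gene with the most negative difference. Its log2 values were 7.48, 7.52 and 7.87 in WT and 7.41, 6.89 and 7.01 in KO. KO1 lay just below WT1, and KO2 and KO3 were clearly lower. The log2 difference was -0.52 with a standard error of 0.21 (95% interval -1.01 to -0.03, unadjusted p = 0.0397, adjusted p = 0.999, limma), and with single libraries left out it ran from -0.68 to -0.40. In the annotation 69.8% of its exon bases overlap Nr2c2 on the opposite strand. Nr2c2 itself had log2 values of 9.20 to 9.46 and a log2 difference of 0.08. The ETS core was found in 36.8% of the members' promoters, as given above. The 8 genes without overlap are too few to relate it to a direction, and this was not tested. Of the higher ones the promoters of Mrps26 and Mrps27 hold a core 11 and 45 bases before the start and that of Mrpl18 a core 237 bases before it, as printed above, and those of Mrps10 and Mrpl23 hold none. The lower Mrps25, Mrpl2 and Mrpl39 hold none either.

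Mrps22 was the small subunit protein that the study tested for binding to TOP1MT. Its messenger RNA had log2 values of 7.81, 8.25 and 8.16 in WT and 8.47, 8.30 and 7.89 in KO. The groups overlapped, with KO1 highest and WT1 lowest, and the log2 difference was 0.14 with a standard error of 0.20 (95% interval -0.33 to 0.62). It was 0.01 without WT1, 0.02 without KO1, 0.23 without WT2 and 0.31 without KO3. Of the members, 13 have a human counterpart in the study's list of proteins recovered with TOP1MT, 10 Mrps and 3 Mrpl. Their median log2 difference was 0.103, against 0.071 for the other 63 genes tested, and without KO1 these medians were 0.011 and -0.015. A difference above 0 was found in 10 of the 13 (76.9%, against 68.3% of the other members and 47.7% of all genes). Without KO1 it was found in 7 of the 13 and in 29 of the 63. No overlap was found in 2 of the 13 (15.4%, against 9.52% of the other members and 8.28% of all genes). The small subunit gene that varied least was Mrps7, which lies on the path of the messenger RNA and spanned only 9.44 to 9.58 over the 6 libraries. The proteins of this path and of the decoding site, Mrps5, Mrps7, Mrps11, Mrps12 and Mrps24, had log2 differences from -0.07 (Mrps12) to 0.27 (Mrps11) with a median of 0.044.

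In the large subunit, Mrpl18 and Mrpl23 were higher and Mrpl2 and Mrpl39 lower in every KO library than in any WT library. Mrpl18 is a protein of the central protuberance, the crest of the large subunit that faces the small one. Its log2 values were 8.77, 8.64 and 8.61 in WT and 9.0, 9.02 and 8.92 in KO, and both groups were tight. The log2 difference was 0.31 with a standard error of 0.13 (95% interval 0.01 to 0.61, unadjusted p = 0.0421, adjusted p = 0.999, limma), and it stayed between 0.28 and 0.36 with libraries left out and under the other settings tried. Of its exon bases, 10.1% overlap Tcp1, whose log2 difference was 0.08. Mrpl23 had 6.14, 6.53 and 5.98 in WT and 6.74, 6.65 and 6.60 in KO, a log2 difference of 0.45 with a standard error of 0.23. The nearest libraries were WT2 and KO3. Part of the Mrpl23 sequence also occurs in its pseudogene Mrpl23-ps1.

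The lower values were small. Mrpl2 had 8.84, 9.11 and 8.84 in WT and 8.77, 8.79 and 8.76 in KO, and Mrpl39, a mitochondria-specific protein, had 8.97, 9.0 and 8.97 in WT and 8.76, 8.94 and 8.82 in KO. Their log2 differences were -0.16 with a standard error of 0.14 and -0.14 with a standard error of 0.13, and that of Mrpl2 was -0.07 without WT2. Mrpl12 forms the mobile stalk that recruits translation factors. It had 8.70, 9.31 and 9.05 in WT and 8.91, 8.75 and 8.79 in KO, which overlap, and a log2 difference of -0.20 with a standard error of 0.18, which was -0.06 without WT2 and -0.36 without WT1. The stalk and its base, Mrpl10, Mrpl11 and Mrpl12, had all 3 differences below 0 with a median of -0.135, which was -0.060 without WT2. The other large subunit proteins are given by role. The 3 near the peptidyl transferase site (Mrpl2, Mrpl3 and Mrpl16) ran from -0.16 to 0.15. At the tunnel exit (Mrpl17, Mrpl22, Mrpl23, Mrpl24, Mrpl45, which ties the ribosome to the membrane, and Mrpl47) the differences ran from -0.07 to 0.45. Of these 6 genes 5 were above 0, and this count was 6 without WT2 and 5 without KO1. In the central protuberance (Mrpl18, Mrpl27, Mrpl38, Mrpl40, Mrpl46, Mrpl48 and Mrpl58) the differences ran from -0.11 to 0.31. Of these 7 genes 5 were above 0, and 2 were without KO1.

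Some symbols do not say where the protein sits. Mrps18a and Mrps30 are proteins of the large subunit, and Mrps36 belongs to the alpha-ketoglutarate dehydrogenase complex and not to the ribosome. Sorted by place, the 26 small subunit genes had a median log2 difference of 0.118 and the 49 large subunit genes of 0.058. The paralogues Mrps18a, Mrps18b and Mrps18c descend from the same bacterial protein, and a ribosome holds each at another place. Mrps18a had log2 values of 8.50 to 8.57 in WT and 8.28 to 8.85 in KO, Mrps18b 7.55 to 7.82 in WT and 7.70 to 7.98 in KO, and Mrps18c 7.85 to 8.21 in WT and 7.88 to 8.83 in KO. All 3 overlapped between genotypes, with log2 differences of 0.06, 0.15 and 0.18, and those of Mrps18a and Mrps18c were -0.08 and -0.12 without KO1. That of Mrps18b was 0.07 without WT1, 0.09 without KO3 and 0.23 without KO1. Mrps30 had 7.58 to 7.96 in WT and 7.48 to 8.03 in KO. Mrps36, the lowest Mrps gene before length correction, had 5.63, 5.66 and 5.83 in WT and 6.00, 5.44 and 5.26 in KO, a log2 difference of -0.14 with a standard error of 0.30 (-0.36 without KO1, 0.01 without KO3), and 19.1% of its windows also occur in its pseudogenes. Mrpl58, a peptidyl-tRNA hydrolase that became part of the large subunit, had 8.01, 8.39 and 8.21 in WT and 8.52, 8.13 and 8.18 in KO.

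Libraries of the same genotype lay further apart than the genotype means. Each gene was centred on its mean over the 6 libraries and averaged over a subunit. The Mrps mean was -0.13, 0.05 and -0.07 in WT1, WT2 and WT3. In the KO libraries it was 0.23, 0.01 and -0.09, in the same order. For Mrpl genes the WT libraries had -0.14, 0.12 and -0.07, and the KO libraries 0.22, 0.0 and -0.13. Both subunits were thus highest in KO1 and next in WT2, and were lowest in WT1. The Mrps mean minus the Mrpl mean took the values 0.012, -0.071 and -0.002 across the WT libraries. Across the KO libraries it took 0.016, 0.009 and 0.036. The subunits parted by at most 0.071 on the log2 scale, in WT2. For WT libraries this gap averaged -0.020 ± 0.045 (SD, n = 3). For KO libraries the average was 0.020 ± 0.014 (SD, n = 3), and the groups overlapped, WT1 lying above KO2.

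**Figure D3:**
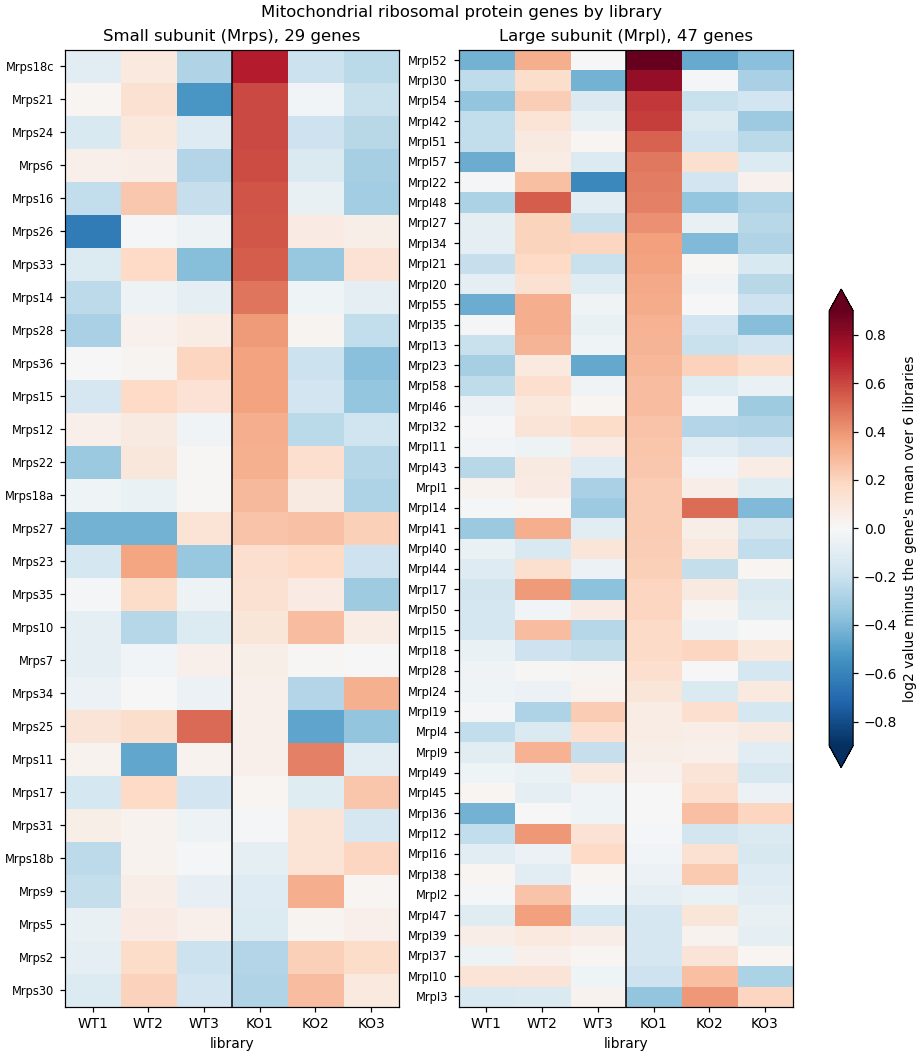
The heat map shows the log2 value of each gene minus its mean over the 6 libraries (colour scale, red above and blue below) for 29 Mrps genes on the left and 47 Mrpl genes on the right, each ordered by its value in KO1; columns are libraries. The KO1 column is red for most genes of both subunits. The KO2 column is mixed, and the KO3 column has means of -0.09 (Mrps) and -0.13 (Mrpl).

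By gene, 39 of the 76 members (51.3%) had their highest value in KO1, against 18.8% of all genes tested, and these were 15 Mrps and 24 Mrpl genes. KO2 held the highest value of 16 members, WT2 of 14, WT3 of 4, KO3 of 3 and WT1 of 0. The lowest value fell in KO3 for 24 members (31.6% against 22.4% of all genes) and in WT1 for 19. The 4 members with the largest range over libraries were all highest in KO1. Mrpl52, a mitochondria-specific protein with 2 ETS cores and a YY1 core in the promoter printed above, had 8.62, 9.37 and 9.05 in WT and 9.97, 8.59 and 8.67 in KO. It was high in KO1 and WT2 and lowest in KO2, its range was 1.37, and its log2 difference of 0.06 (standard error 0.37) became -0.38 without KO1. Mrpl30 had 9.04, 9.43 and 8.84 in WT and 10.06, 9.26 and 8.98 in KO, a range of 1.23 and a log2 difference of 0.33, which was 0.01 without KO1 and 0.56 without KO3. For Mrps26 the range was 1.19, as given above. Mrps21 had 8.27, 8.39 and 7.73 in WT and 8.85, 8.23 and 8.05 in KO, a range of 1.12, and its difference of 0.25 was 0.01 without KO1 and 0.05 without WT3. Mrpl54 showed the same order at the top, with 8.27, 8.84 and 8.49 in WT and 9.26, 8.42 and 8.45 in KO. The median range was 0.68 for Mrps and 0.54 for Mrpl against 1.03 for all genes tested, and 23 of 76 members spanned less than 0.5. Related groups had median ranges of 0.71 (complex I subunits), 0.55 (factors that assemble the mitochondrial ribosome) and 0.45 (mitochondrial translation factors). A range below that of all genes was therefore not particular to the members. That of the cytosolic ribosome was 1.34.

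**Figure D4:**
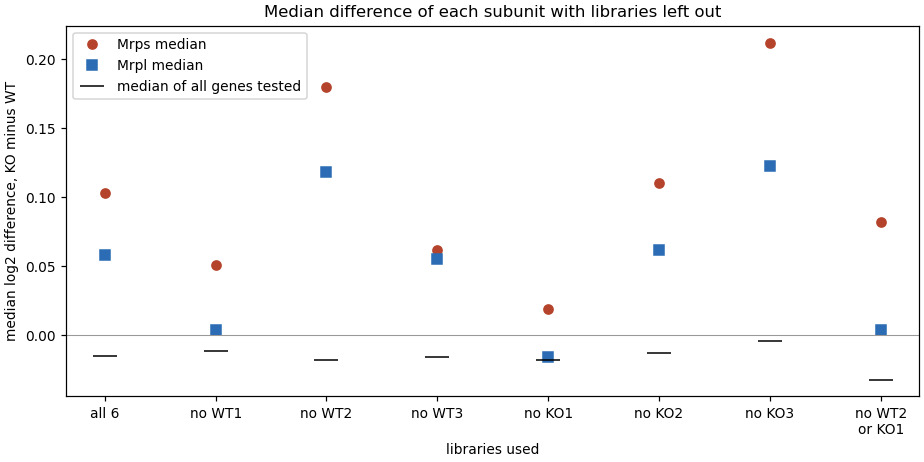
The plot shows the median log2 difference, KO minus WT (vertical axis), of Mrps genes (red circles), Mrpl genes (blue squares) and all genes tested (black bars) with all 6 libraries and with libraries left out (horizontal axis). The Mrps median runs from 0.019 without KO1 to 0.212 without KO3, and the Mrpl median from -0.016 without KO1 to 0.123 without KO3.

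Leaving out a library moved the subunit medians by as much as their own size. Without KO1 the median log2 difference was 0.019 for Mrps and -0.016 for Mrpl, with 36 of 76 members above 0 against 47.9% of all genes. Without WT1 the medians were 0.051 and 0.004, and without WT2 they were 0.180 and 0.118. Without KO3 they were 0.212 and 0.123, with 63 members above 0. With WT2 and KO1 both left out, the Mrps median was 0.082 with 19 of 29 above 0, and the Mrpl median was 0.004 with 24 of 47 above 0. The Mrps median exceeded the Mrpl median by 0.045 with all libraries and by 0.006 to 0.089 with single ones left out.

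Members moved together across libraries to a moderate degree. For each pair of genes the Pearson correlation was taken over the 6 libraries after centring within each genotype, and it is given as a description, since all pairs share the same libraries and their normalisation. The median was 0.164 for pairs of Mrps genes (406 pairs, 57.6% above 0), 0.396 for pairs of Mrpl genes (1081 pairs, 70.6% above 0) and 0.319 for mixed pairs (1363 pairs). Pairs of all genes tested had a median of 0.001. Genes of other complexes moved together more closely, with a median of 0.803 for complex I subunits and 0.983 for the cytosolic ribosome. Without KO1 the 3 medians of the members were 0.299, 0.431 and 0.390, and those of complex I and the cytosolic ribosome 0.666 and 0.948. The members least like the others were Mrpl3 (mean correlation -0.31), Mrpl37 (-0.18) and Mrps34 (-0.17), and those most like them were Mrpl57 (0.50), Mrps22, Mrps16 and Mrpl21 (0.48 each). Mrpl3 was lowest in KO1, at 7.82, and highest in KO2, at 8.57, unlike most members.

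The high values of KO1 were found most in short genes. Across the 76 members the deviation in KO1 had a Pearson correlation of -0.32 with the log2 length of the longest transcript (-0.48 for Mrps, -0.20 for Mrpl), against -0.09 across 16190 protein-coding genes. In the other 5 libraries it lay between -0.02 and 0.19. The 25 shortest members (488 to 1138 bases) averaged 0.36 above their mean in KO1, the 25 of middle length (1219 to 2625 bases) 0.12 and the 26 longest (2799 to 7300 bases) 0.18. The median log2 differences of these classes were 0.108, 0.066 and 0.069 with all libraries and -0.016, 0.042 and 0.087 without WT2 and KO1. These correlations are across genes, which are not independent replicates, and the part of transcript length in the differences was not tested.

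**Figure D5:**
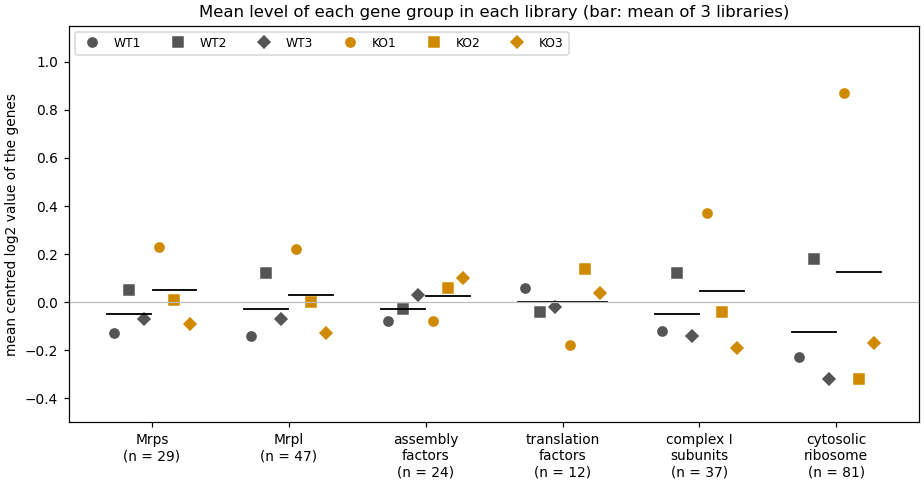
The plot shows the mean centred log2 value (vertical axis) of each gene group (horizontal axis) in each library, WT in grey and KO in orange, with a bar at the mean of 3 libraries. KO1 is the highest library for Mrps (0.23), Mrpl (0.22), complex I (0.37) and the cytosolic ribosome (0.87), but not for assembly factors (-0.08) or translation factors (-0.18).

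The pattern over libraries was shared with some related genes and not with others. The 81 cytosolic ribosomal proteins averaged 0.87 in KO1 and between -0.32 and 0.18 elsewhere, with a median log2 difference of 0.278, which was -0.096 without KO1. Of these genes 0 were without overlap, against 8.28% of all genes. The 37 complex I subunits, which assemble with subunits made by mitochondrial ribosomes, averaged 0.37 in KO1 and had a median difference of 0.079, which was -0.048 without KO1. The 24 factors that assemble the mitochondrial ribosome or modify its RNA had -0.08 in KO1, level with WT1 and below the other 4 libraries, and a median difference of 0.024 with 14 above 0 (0.084 and 15 without KO1). The difference furthest from 0 among them was that of Ybey, an RNA endonuclease family protein, which had 6.22, 5.72 and 5.77 in WT and 6.12, 6.82 and 6.22 in KO, with overlap, and a log2 difference of 0.49 (0.27 to 0.64 with single libraries left out). Mettl15, a methyltransferase of the small subunit RNA, had 5.87, 6.25 and 6.28 in WT and 5.38, 5.85 and 5.75 in KO, a log2 difference of -0.47. Trub2, a pseudouridine synthase family protein, had a difference of 0.35 with overlap, which was 0.13 without WT2. The GTPase Mtg1 had 7.13, 7.09 and 7.22 in WT and 7.40, 7.53 and 7.52 in KO, a difference of 0.34. Fastkd2, which binds mitochondrial ribosomal RNA, was likewise higher in every KO library, with a difference of 0.29. The 12 translation factors averaged -0.18 in KO1, their lowest library, and their median difference was -0.012 (0.063 without KO1). The elongation factor Tsfm had 7.55, 7.28 and 7.71 in WT and 6.5, 7.58 and 7.34 in KO, and its difference of -0.37 was -0.05 without KO1. The initiation factor Mtif3 had 7.72, 7.75 and 7.80 in WT and 8.06, 7.95 and 8.14 in KO, a difference of 0.29. Of 5 mitochondrial ribosomal proteins with another symbol 2 were above 0, and Ptcd3, which lies at the entry of the messenger RNA, had 9.12, 9.31 and 9.27 in WT and 9.02, 9.09 and 9.11 in KO, a difference of -0.16. None of these genes passed the adjusted threshold (adjusted p = 0.999 each, limma). In KO1 the means of the stellate cell and bile duct lists were at their lowest, -1.11 and -0.97 over 7 and 6 markers. The mean of the hepatocyte list was at its highest, 0.30 over 8 markers. Single markers did not all follow these means. The bile duct marker Sox9 was highest in KO1 (7.59), the stellate cell marker Acta2 was lowest in WT3, and of the hepatocyte markers only Alb and Serpina1a were highest in KO1. The part of these cell types in the KO1 values was not tested.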

How the data were processed

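RNA-seq of 3 WT and 3 Top1mt-KO mouse liver tumors (stranded libraries) was used, with genotype and replicate as labelled. The values are log2 expression values that the authors normalised between libraries and deposited with 1 row per symbol; their transform is not named in the sources used here. Per the labels the processing notes name bcl2fastq 2.17, Trimmomatic 0.36, STAR 2.5.1, Subread, DESeq2 and GRCm38, whereas the methods name BWA and a mouse genome called Mm 8, so aligner and build are not settled. The values run from -2.24 to 22.0 and look like a regularized log, which would understate differences of weakly expressed genes; this was not tested. Counts and depth cannot be recovered, so no count model was run.

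KO was set against WT by limma 3.58.1 (R 4.3.3, lmFit, eBayes with trend, two-sided). The 25% of genes with the lowest mean were removed, and p-values were adjusted by Benjamini-Hochberg over the remaining 22677. The test was checked on simulated data. Gene positions and overlaps came from GENCODE M21 (GRCm38) and promoters from RefSeq (GRCm38.p6).

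Named were Top1mt, members past the threshold (0), members without overlap, Mrps22, members with misleading symbols, the Mrps18 paralogues, Mrpl12, Mrpl58, the 4 highest and 4 lowest levels per kb, the 4 largest ranges, and up to 3 genes of each related list; Mrps7, Mrps34, Mtg1, Fastkd2, the co-variation extremes and the groups by role were added after their values were seen. Members and lists were chosen with earlier results of these data known. Alternatives were no trend, quantile normalization, median centring, no filter, a filter at the median, a replicate block, each library left out, WT2 and KO1 left out, subunit by place, and another length; co-variation without KO1, and related lists and genes without WT2 or KO1, were added after seeing the data.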

Additional observations from a re-analysis of the deposited data

How the results depend on the processing

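With 3 libraries a genotype, unknown depth and WT2 and KO1 standing apart, the 95% intervals of single members reached from -1.01 to 1.0. The count of members past the adjusted threshold was 0 under every alternative run, and the smallest adjusted p of the 21 named members was 0.634. The count at an unadjusted p under 0.05, which was 3, was 0 without the mean-variance trend, 1 without WT2 and KO1 together and 0 (without KO2) to 2 (without WT1 or KO1) with single libraries left out. Members without overlap, 8 of 76, were 3 with median centring, 28 without WT2 and KO1 (33.6% of all genes then) and 9 to 19 with single libraries left out (up to 21.5% of all genes, without KO1). The median difference ran from 0.019 to 0.212 for Mrps and from -0.016 to 0.123 for Mrpl with single libraries left out, and their gap from 0.006 to 0.089. Median centring shifted the median of all genes from -0.015 to 0.039 and put 62 of 76 members above 0, against 56.8% of all genes. With the longest transcript the level medians were 6.87 (Mrps) and 7.69 (Mrpl). In Mrps promoters alone the share was 3.85% for the NRF1 core and 65.4% for the Sp1 box. The Mrps co-variation was 0.299 without KO1. Why these values moved was not tested.

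Same-numbered libraries of the 2 genotypes did not deviate together (correlations -0.123, -0.0759 and 0.052). Each value rests on deviations from a mean of 3 libraries, so whether the numbers pair anything is not settled. With the replicate block 0 members passed the adjusted threshold and 0 had an unadjusted p under 0.05, against 4.02% of all genes. Of the 21 named members 13 kept their direction under every alternative and 8 did not. Without WT2 and KO1 the log2 difference was -0.20 for Mrpl52, -0.09 for Mrps18a and -0.03 for Mrps18c, which reversed. Others kept their sign in this fit, though Mrps30, Mrps35, Mrps36, Mrpl54 and Mrpl58 reversed under another alternative. Among these others the difference moved to 0.33 for Mrps30, -0.38 for Mrps36, 0.29 for Mrps18b, 0.18 for Mrpl30 and 0.14 for Mrps21. It was 0.05 for Mrpl54, 0.04 for Mrpl58, -0.11 for Mrpl12, -0.09 for Mrpl39 and -0.07 for Mrpl2. With single libraries left out it ran from -0.38 to 0.31 for Mrpl52, -0.10 to 0.33 for Mrpl54, -0.05 to 0.17 for Mrpl58, -0.08 to 0.21 for Mrps18a, -0.12 to 0.35 for Mrps18c, -0.06 to 0.21 for Mrps30, -0.16 to 0.07 for Mrps35 and -0.36 to 0.01 for Mrps36.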
